A study of Mus musculus with 6 samples.

Results

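The genes described here encode the subunits of the hypoxia-inducible factors (HIFs) and the enzymes and adaptor protein that couple HIF to oxygen. They are the alpha subunits Hif1a, Epas1 and Hif3a, the beta subunits Arnt and Arnt2, the prolyl hydroxylases Egln1, Egln2 and Egln3, the asparaginyl hydroxylase Hif1an, and the ubiquitin ligase adaptor Vhl. They were chosen by symbol and matched to NCBI Gene identifiers, giving 10 genes of the 27179 in the count tables. Of these, 8 had enough counts to be tested, among 14069 tested genes in all.

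HIF is a heterodimer of an oxygen-regulated alpha subunit and a constitutive beta subunit, and both are bHLH-PAS proteins, transcription factors that bind DNA as dimers, like the clock activators CLOCK and BMAL1. When oxygen is present, the prolyl hydroxylases modify HIF alpha proteins, VHL recognizes the modified proteins and they are degraded, while the asparaginyl hydroxylase encoded by Hif1an blocks the binding of coactivators. When oxygen falls, the alpha subunits accumulate and activate genes of glycolysis, angiogenesis and oxygen sensing. Egln1 and Egln3 are themselves known HIF target genes. This regulation acts mainly on protein, and the data here are mRNA levels of cells in ordinary culture.

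The study asked how cryptochromes act on metabolism in mouse embryonic fibroblasts without a working circadian feedback loop. The 3 lines share the knockout of Cry1, Cry2, Per1, Per2, Nr1d1 and Nr1d2. The parental line, called CPN-/-, received no transgene, and the CPN-/- CRY1 and CPN-/- CRY2 lines express exogenous CRY1 or CRY2 from a viral promoter, outside the control of the feedback loop. Each line gave 2 libraries from independent RNA preparations, grown in DMEM with serum, and the labels list no treatment. Both CRY lines were isolated as single colonies under blasticidin, a selection not described for CPN-/-, so that the transgene, the selection and the clone cannot be told apart, and the p-values measure the spread between RNA preparations of a line. In such bulk samples, fewer cells of a type and less RNA per cell cannot be told apart either.

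The libraries held 25957409 to 36106949 counts. Levels are given in CPM, the share of a library's counts per 1e6 after adjusting its size by TMM factors, which lay between 0.991 and 1.01. Cry1 was at 125 and 115 CPM in CPN-/-, 165 and 189.6 CPM in CPN-/- CRY1, and 51.0 and 48.3 CPM in CPN-/- CRY2. Cry2 was at 136 and 129 CPM in CPN-/-, 50.7 and 51.7 CPM in CPN-/- CRY1, and 349 and 351 CPM in CPN-/- CRY2. Each line was thus highest in the cryptochrome it was given, although reads from the disrupted endogenous genes were counted too. Of 9 fibroblast markers, 8 reached 10 counts, with summed levels of 11163 to 14111 CPM in CPN-/-, 13587 to 13884 CPM in CPN-/- CRY1 and 17399 to 17839 CPM in CPN-/- CRY2, and Thy1 stayed under 10 counts in every library. All 5 epithelial markers, 3 of 5 endothelial markers and 4 of 5 hematopoietic markers stayed under 10 counts, and Epcam was at 0.

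A pair of features of the libraries touch the genes described here. The CPN-/- libraries differed by transcript length: the log2 difference of replicate 2 from replicate 1 had a Spearman correlation of -0.66 with length over 12478 tested genes, and its median was 0.33 for the shortest class of transcripts (under 2 kb) and -0.31 for the longest (4 kb or more). In the CPN-/- CRY1 line the genes of whole chromosomes were shifted, with a median log2 fold change against CPN-/- of -0.28 on chromosome 3, -0.36 on chromosome 15, 0.27 on chromosome 16 and 0.31 on chromosome 19, where the medians of the other chromosomes lay between -0.13 and 0.11. Arnt lies on chromosome 3 and Hif1an on chromosome 19.

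The 250 bases before and the first 10 bases of the RefSeq start (assembly GRCm38.p6, equivalent to mm10) are shown for 4 genes. These are Egln1 and Egln3, which were lower in both CRY lines, Egln2, the hydroxylase that passed in none of the 3 main comparisons, and Hif1a, whose line order differed. Each is printed 5′ to 3′ on the strand of the gene. Capitals mark the E-box CACGTG, to which CLOCK-BMAL1 is known to bind, and the letters ACGTG and GCGTG on either strand, the core that HIF is known to bind. Every CACGTG contains ACGTG on both strands.
Egln1, chr8:124949245-124949504, reverse strand: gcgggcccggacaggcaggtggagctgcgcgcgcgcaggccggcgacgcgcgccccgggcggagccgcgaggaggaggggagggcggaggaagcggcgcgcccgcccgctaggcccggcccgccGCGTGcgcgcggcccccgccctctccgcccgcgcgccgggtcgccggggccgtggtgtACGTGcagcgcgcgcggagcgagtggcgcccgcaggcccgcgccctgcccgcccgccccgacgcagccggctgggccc
Egln3, chr12:54203865-54204124, reverse strand: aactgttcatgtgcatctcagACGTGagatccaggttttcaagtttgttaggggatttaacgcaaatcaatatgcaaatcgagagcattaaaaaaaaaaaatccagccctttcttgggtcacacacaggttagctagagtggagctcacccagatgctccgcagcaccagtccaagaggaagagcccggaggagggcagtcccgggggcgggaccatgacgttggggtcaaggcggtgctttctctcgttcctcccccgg
Egln2, chr7:27166793-27167052, reverse strand: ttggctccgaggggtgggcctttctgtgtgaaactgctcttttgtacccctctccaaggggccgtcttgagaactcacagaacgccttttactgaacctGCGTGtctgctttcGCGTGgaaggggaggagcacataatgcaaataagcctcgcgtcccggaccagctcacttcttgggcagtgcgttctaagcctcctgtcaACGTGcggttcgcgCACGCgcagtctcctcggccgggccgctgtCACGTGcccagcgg
Hif1a, chr12:73907617-73907876, forward strand: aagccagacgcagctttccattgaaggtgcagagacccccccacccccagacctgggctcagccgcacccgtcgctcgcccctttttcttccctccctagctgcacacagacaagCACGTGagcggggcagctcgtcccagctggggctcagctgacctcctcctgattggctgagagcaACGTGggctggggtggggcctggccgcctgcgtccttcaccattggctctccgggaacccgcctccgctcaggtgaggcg

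The Hif1a window held an E-box that begins at position -135, counted from the RefSeq start, and a further ACGTG at -70. The listed starts of Hif1a and Arnt2 lie inside the gene spans given below and do not mark their upstream ends. The Egln2 window held an E-box at -4, ACGTG at -48 and GCGTG at -151, -137 and, on the other strand, -34. In Egln1, GCGTG began at -126 and ACGTG at -68, and in Egln3 a single ACGTG began at -229. A promoter was listed for 9 of the 10 genes, the exception being Epas1. Among the remaining genes, Arnt held GCGTG at -29 and Hif3a held it at -230 and -186, a second listed start of Egln2 held it at -116, and the windows of Vhl, Arnt2 and Hif1an held none of these letters. Over 32851 RefSeq windows of the same 260 bases, 6.34% held an E-box, 17.3% held ACGTG, 29.1% held GCGTG and 39.7% held at least one of the latter pair. A match is a string of letters, and no binding was measured in these libraries.

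In the comparison of CPN-/- CRY1 with CPN-/-, 3 of the 8 tested genes fell (Egln1, Egln3 and Vhl) and 1 rose (Hif1an), at an adjusted p under 0.05 from the edgeR quasi-likelihood test with Benjamini-Hochberg adjustment over all tested genes. Of all tested genes, 24.3% passed the same test, 13.1% as lower and 11.2% as higher. In CPN-/- CRY2 against CPN-/-, Egln1 and Egln3 fell and none of the other 6 tested genes passed, where 6.66% of all tested genes passed, 4.08% as lower and 2.58% as higher. Directly between the CRY lines, Hif1a and Arnt were lower and Egln3 and Hif1an were higher in CPN-/- CRY1, where 16.3% of all tested genes passed, 8.57% as lower and 7.72% as higher. The median log2 fold change of the 8 genes was -0.37, -0.13 and 0.00017 in these comparisons, and that of all tested genes was -0.0073, -0.0076 and -0.0046. The comparisons share the CPN-/- libraries or the CRY libraries, so they are not independent. After the trend with transcript length was removed from each library, the genes called against CPN-/- were 2358 lower and 3064 higher for CPN-/- CRY1, in place of 1844 and 1579, and 887 lower and 1394 higher for CPN-/- CRY2, in place of 574 and 363.

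**Figure D1:**
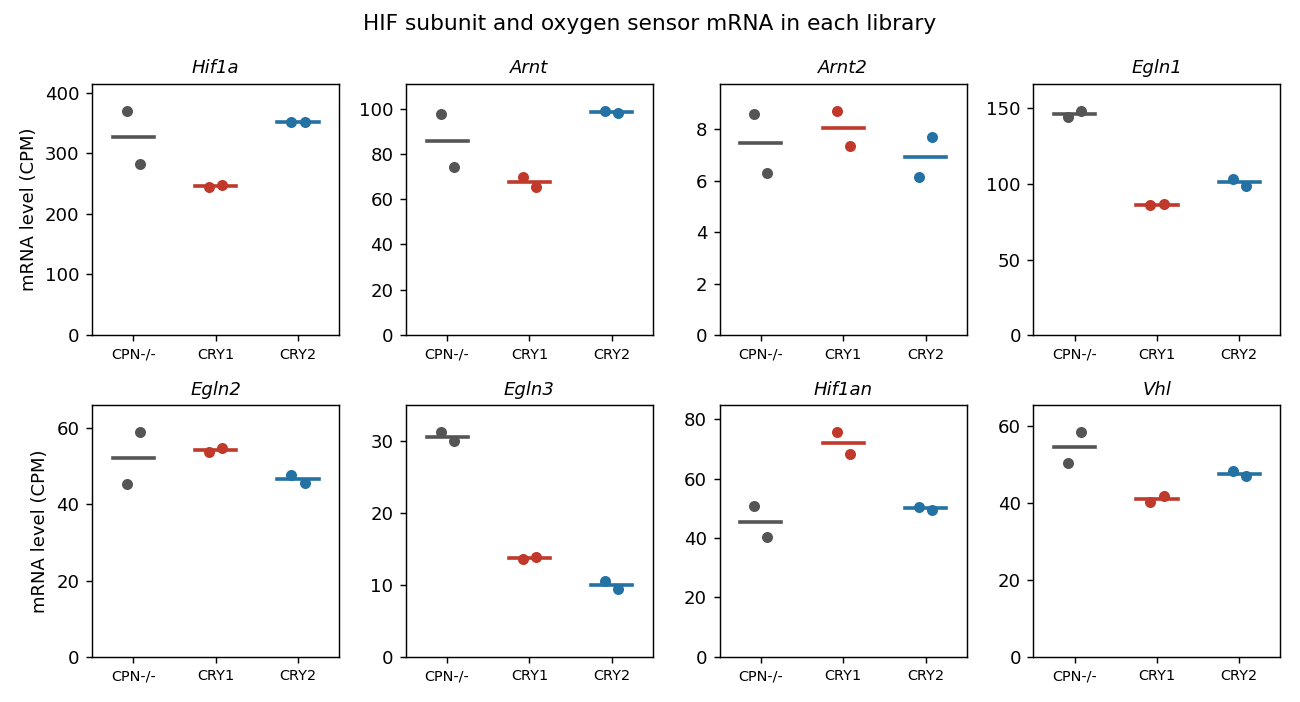
mRNA level in CPM on a linear axis from 0 for the 8 tested genes, with a point for each of the 6 libraries and a line at the mean of each cell line. Egln1 and Egln3 are lower in all 4 CRY libraries than in both CPN-/- libraries, and the CPN-/- CRY1 libraries are the lowest of the 6 for Hif1a, Arnt, Egln1 and Vhl.

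**Figure D2:**
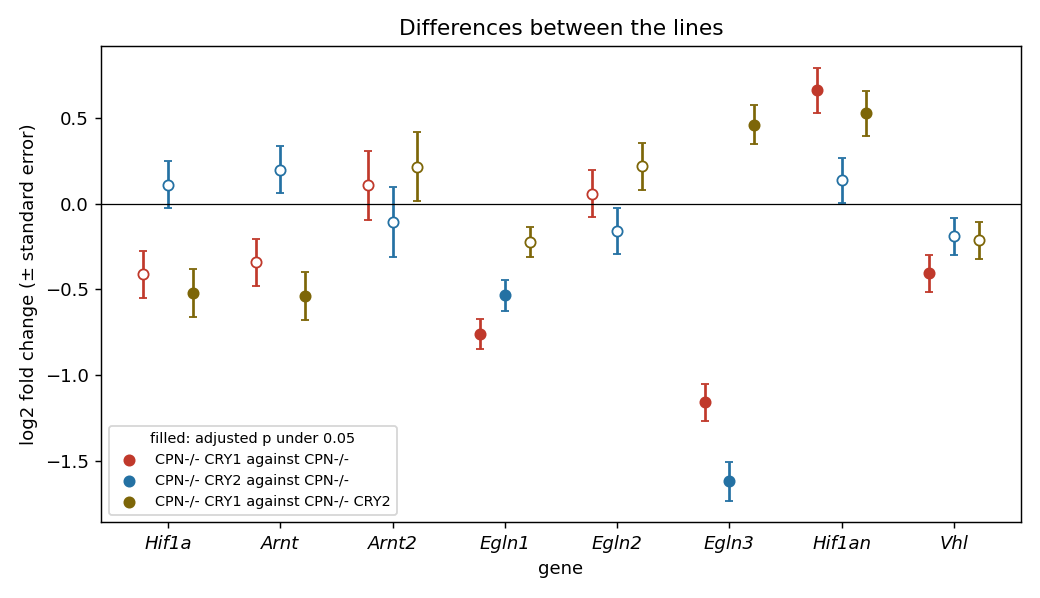
log2 fold change with its standard error for the 8 tested genes in the 3 comparisons, where filled points passed an adjusted p of 0.05 by edgeR. Egln3 has the lowest values, -1.16 and -1.62 against CPN-/-, and Hif1an the highest, 0.66 in CPN-/- CRY1 against CPN-/-.

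Among the alpha subunits, Hif1a, the main oxygen-regulated subunit of fibroblasts, supplied nearly all of the mRNA. Hif1a lies at chr12:73901324-73947554 on the forward strand of mm10, and its longest transcript has 15 exons and 4724 bases. Its level was 370.4 and 282.5 CPM in CPN-/-, 243.6 and 247.0 CPM in CPN-/- CRY1, and 352.4 and 352.1 CPM in CPN-/- CRY2. Both CPN-/- CRY1 libraries were below all 4 others, and the CPN-/- CRY2 libraries lay between the CPN-/- libraries. The log2 fold change in CPN-/- CRY1 against CPN-/- was -0.41 (SE 0.14), a level 1.33-fold lower that did not pass (edgeR, adjusted p = 0.070). The CPN-/- CRY2 line differed from CPN-/- by 0.11 on the log2 scale (SE 0.14, 95% confidence interval -0.22 to 0.44) and did not pass either (edgeR, adjusted p = 0.63).

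Between the CRY lines, Hif1a was 1.44-fold lower in CPN-/- CRY1, a log2 difference of -0.52 (SE 0.14) that passed (edgeR, adjusted p = 0.046). The CPN-/- libraries themselves differed in Hif1a by -0.39 on the log2 scale (replicate 2 against replicate 1), beside the median of -0.31 for transcripts of its length class. With the length trend removed, Hif1a fell in CPN-/- CRY1 by 0.46 on the log2 scale (edgeR, adjusted p = 0.0028). It also passed with DESeq2 (adjusted p = 0.046), and over all alternatives the adjusted p ran from 3.2e-09 to 0.29, where the lowest came from a fit with 1 CPN-/- library. With 1 CPN-/- library left out, that arm holds a single library and the spread is taken from the CRY lines alone, so values from these fits against CPN-/- are given here and for the genes that follow as sizes only. In CPN-/- CRY1 the log2 fold change of Hif1a was -0.20 without CPN-/- replicate 1 and -0.59 without replicate 2. In CPN-/- CRY2 it was 0.32 without CPN-/- replicate 1 and -0.065 without replicate 2, a span as wide as the difference between the CPN-/- libraries. Of its 5896 exon bases, 330 overlap the antisense gene Gm15283 and 148 overlap Gm49321, so a small part of the count could belong to these genes.

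Epas1, which encodes the HIF2 alpha subunit best known from endothelium and kidney, had 9 and 5 counts in CPN-/-, 7 and 5 in CPN-/- CRY1, then 2 and 0 in CPN-/- CRY2. It was left out of the test for low counts. With the filter reduced to 1 count, it passed in none of the 3 comparisons (edgeR, adjusted p = 0.71, 0.16 and 0.22). Hif3a, an alpha subunit with inhibitory splice forms, had 0 counts in all 6 libraries, where 3 counts correspond to 0.0830 to 0.115 CPM. Per length, Hif1a made up at least 99.9% of the alpha subunit mRNA in every library.

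Arnt, the general beta subunit that pairs with HIF alpha proteins and with the aryl hydrocarbon receptor, was lowest in CPN-/- CRY1, like Hif1a. It lies at chr3:95434367-95497240 on the forward strand, with 21 exons and 4325 bases in its longest transcript. Arnt was at 97.4 and 74.4 CPM in CPN-/-, 70.0 and 65.6 CPM in CPN-/- CRY1, and 99.1 and 98.0 CPM in CPN-/- CRY2, and the groups did not overlap. The log2 fold change was -0.34 (SE 0.14; edgeR, adjusted p = 0.11) in CPN-/- CRY1 and 0.20 (SE 0.14; edgeR, adjusted p = 0.40) in CPN-/- CRY2, and neither passed. Between the CRY lines, Arnt was 1.45-fold lower in CPN-/- CRY1, a log2 difference of -0.54 (SE 0.14; edgeR, adjusted p = 0.041).

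The genes of chromosome 3 had a median log2 difference of -0.40 in that direct comparison, so that Arnt differed from its chromosome's median by -0.14. Against CPN-/- it differed from that median by -0.064 in CPN-/- CRY1. The part of the chromosome shift in the Arnt result was not tested. Arnt also differed between the CPN-/- libraries, with a log2 difference of -0.39 for replicate 2 against replicate 1, and with the length trend removed from all libraries Arnt fell in CPN-/- CRY1 by 0.37 on the log2 scale (edgeR, adjusted p = 0.012). The log2 fold change of Arnt in CPN-/- CRY1 was -0.13 without CPN-/- replicate 1 and -0.51 without replicate 2, and that in CPN-/- CRY2 was 0.41 and 0.025 without the same libraries.

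Arnt2, a paralog of Arnt best known from neurons, was a minor beta subunit here. It lies at chr7:84246274-84411741 on the reverse strand, with 20 exons and 6228 bases in its longest transcript. Its 6 libraries lay between 6.14 and 8.72 CPM and the 3 lines overlapped. Its log2 difference from CPN-/- was 0.11 (95% confidence interval -0.37 to 0.58) in CPN-/- CRY1 and -0.11 (-0.59 to 0.38) in CPN-/- CRY2, and neither passed (edgeR, adjusted p = 0.71 and 0.75). Between the CRY lines it differed by 0.22 (-0.26 to 0.69; edgeR, adjusted p = 0.54). Its direction against CPN-/- turned under other settings in each CRY line. Per length, Arnt made up 94.3%, 92.4% and 95.3% of the beta subunit mRNA in CPN-/-, CPN-/- CRY1 and CPN-/- CRY2. The ratio of Hif1a to Arnt per length was 3.48 in both CPN-/- libraries, 3.19 and 3.45 in CPN-/- CRY1, then 3.26 and 3.29 in CPN-/- CRY2.

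The prolyl hydroxylases Egln3 and Egln1 held the largest differences from CPN-/- among the 8 tested genes. Egln3, which encodes PHD3, lies at chr12:54178981-54203874 on the reverse strand, on the same chromosome as Hif1a, with 5 exons and 2662 bases. Egln3 was at 31.2 and 30.0 CPM in CPN-/-, 13.6 and 13.9 CPM in CPN-/- CRY1, and 10.51 and 9.41 CPM in CPN-/- CRY2. The 3 lines did not overlap, and each gap between lines exceeded the gaps within lines. Egln3 fell 2.23-fold in CPN-/- CRY1, a log2 fold change of -1.16 (SE 0.11; edgeR, adjusted p = 9.4e-04), and 3.07-fold in CPN-/- CRY2, a log2 fold change of -1.62 (SE 0.11; edgeR, adjusted p = 7.0e-04).

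Unlike Hif1a and Arnt, Egln3 was higher in CPN-/- CRY1 than in the other CRY line, with a log2 difference of 0.46 (SE 0.11; edgeR, adjusted p = 0.035). That direct call was lost with any 1 of the 4 CRY libraries left out (edgeR, adjusted p = 0.15 to 0.30). Both calls against CPN-/- held under the 10 alternatives other than leaving out a library. Over all 16 alternatives, log2 fold changes ran from -1.18 to -1.03 for the CPN-/- CRY1 line and from -1.69 to -1.499 for the CPN-/- CRY2 line. The median log2 fold change of chromosome 12 was 0.012 for CPN-/- CRY1 and 0.037 for CPN-/- CRY2.

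Egln1 encodes PHD2, the main hydroxylase of HIF1 alpha in most cells. It lies at chr8:124908587-124949254 on the reverse strand, with 5 exons and 3594 bases. Its level was 144 and 149 CPM in CPN-/-, 86.2 and 86.7 CPM in CPN-/- CRY1, and 103 and 98.8 CPM in CPN-/- CRY2, and both CRY lines lay below CPN-/- without overlap. Egln1 fell 1.69-fold in CPN-/- CRY1, a log2 fold change of -0.76 (SE 0.09; edgeR, adjusted p = 0.0022), and 1.45-fold in CPN-/- CRY2, a log2 fold change of -0.53 (SE 0.09; edgeR, adjusted p = 0.016).

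The Egln1 call in CPN-/- CRY1, with log2 fold changes of -0.79 to -0.73 over all 16 alternatives, held under the 10 other than leaving out a library. In CPN-/- CRY2 it was lost when the 4 libraries of the comparison were fitted alone (edgeR, adjusted p = 0.083) and when any 1 of the CRY libraries was left out (adjusted p = 0.085 to 0.25), with log2 fold changes that stayed between -0.56 and -0.49. Between the CRY lines the log2 difference was -0.22 (95% confidence interval -0.44 to -0.013) and did not pass (edgeR, adjusted p = 0.14). There it passed under 5 of the 16 alternatives and missed under the other 11. It passed in the fit of the 4 CRY libraries alone (edgeR, adjusted p = 0.0012) and with the length trend removed (edgeR, adjusted p = 0.024). Both of those fits also called more of all tested genes than the main fit.

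Egln2, which encodes PHD1, lies at chr7:27158658-27166802 on the reverse strand, with 6 exons and 2107 bases, and 11 of its 2800 exon bases overlap Cyp2t4 on the other strand. It was at 45.3 and 58.9 CPM in CPN-/-, 53.7 and 54.7 CPM in CPN-/- CRY1, and 47.6 and 45.5 CPM in CPN-/- CRY2. The CRY libraries lay within the range of the CPN-/- libraries, whose difference of 0.38 on the log2 scale had the opposite sign to that of Hif1a. Against CPN-/-, the log2 difference of Egln2 was 0.058 (95% confidence interval -0.27 to 0.38) in CPN-/- CRY1 and -0.16 (-0.48 to 0.16) in CPN-/- CRY2, and neither passed (edgeR, adjusted p = 0.77 and 0.48). Either CPN-/- library decided the sign of both values. The log2 fold change in CPN-/- CRY1 was 0.27 without CPN-/- replicate 2 and -0.12 without replicate 1, whereas for CPN-/- CRY2 the value was -0.34 without CPN-/- replicate 1 and 0.049 without replicate 2. Between the CRY lines the log2 difference of 0.22 did not pass (edgeR, adjusted p = 0.34), nor did it under 13 of the 16 alternatives. The 3 fits in which it passed leave out 1 or both CPN-/- libraries and take the spread from the CRY lines alone.

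Compared per length, as CPM per kilobase (kb) of the longest transcript, the 3 prolyl hydroxylases can be set beside each other. Their sum was 73.3 and 80.5 CPM per kb in CPN-/-, 54.5 and 55.3 in CPN-/- CRY1, then 55.2 and 52.6 in CPN-/- CRY2. The CRY lines overlapped each other in this sum and lay below both CPN-/- libraries. Egln1 made up 54.7% and 51.3% of the sum in CPN-/-, 44.0% and 43.7% of it in CPN-/- CRY1, then 52.0% and 52.2% in CPN-/- CRY2. The share of Egln2 was 29.3% and 34.7% in CPN-/-, 46.7% and 46.9% in CPN-/- CRY1, then 40.9% and 41.1% in CPN-/- CRY2. By this measure Egln2 was the most abundant hydroxylase mRNA in CPN-/- CRY1 and Egln1 in the other lines. That rank depends on the length used. In CPM, Egln1 was above Egln2 in CPN-/- CRY1 too, at 86.2 and 86.7 against 53.7 and 54.7. Egln3 supplied 15.99% and 13.98% in CPN-/-, 9.34% and 9.41% in CPN-/- CRY1, then 7.15% and 6.72% in CPN-/- CRY2. The ratio of Hif1a to this sum was 1.07 and 0.742 in CPN-/-, 0.946 in both CPN-/- CRY1 libraries, and 1.35 and 1.42 in CPN-/- CRY2. These shares and ratios were not tested, and an exact comparison of 2 libraries with 2 could not have passed.

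**Figure D3:**
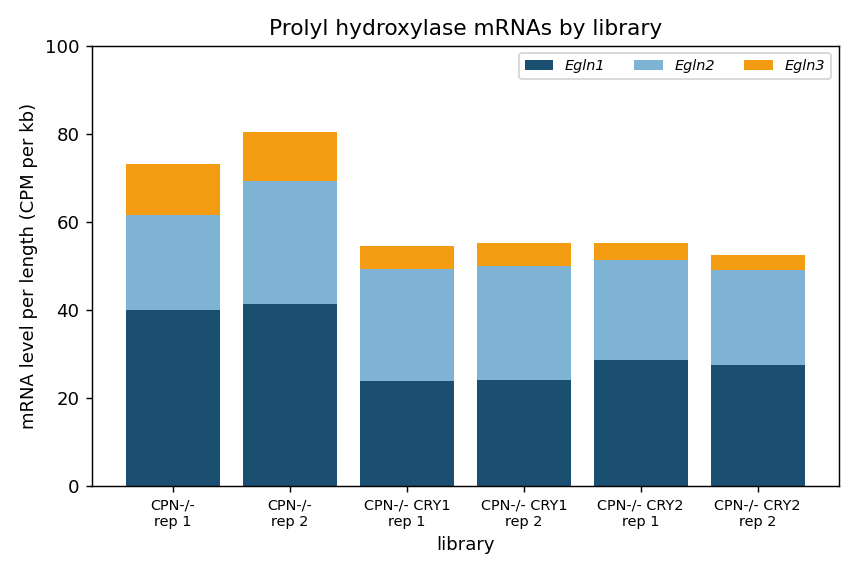
mRNA level per transcript length (CPM per kb) of Egln1, Egln2 and Egln3, stacked for each of the 6 libraries on an axis from 0. The stack reaches 73.3 and 80.5 in CPN-/- and 52.6 to 55.3 in the CRY libraries, and the Egln3 part is 13.98% or more of the stack in CPN-/- and 9.41% or less in the CRY libraries.

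Hif1an, which encodes the asparaginyl hydroxylase FIH, was the gene that rose. It lies at chr19:44562854-44576274 on the forward strand, with 8 exons and 6194 bases. Hif1an was at 50.7 and 40.3 CPM in CPN-/-, 75.6 and 68.4 CPM in CPN-/- CRY1, and 50.5 and 49.5 CPM in CPN-/- CRY2. Both CPN-/- CRY1 libraries were above the other 4, which overlapped. The rise in CPN-/- CRY1 was 1.58-fold, a log2 fold change of 0.66 (SE 0.13; edgeR, adjusted p = 0.014), and CPN-/- CRY1 was 1.44-fold higher than CPN-/- CRY2, a log2 difference of 0.53 (SE 0.13; edgeR, adjusted p = 0.038). Hif1an in CPN-/- CRY2 differed from CPN-/- by 0.14 on the log2 scale (95% confidence interval -0.18 to 0.45; edgeR, adjusted p = 0.54).

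The genes of chromosome 19 moved in the same direction, with a median log2 difference of 0.31 in CPN-/- CRY1 against CPN-/- and of 0.46 against CPN-/- CRY2. Hif1an exceeded these medians by 0.35 and 0.066, and the part of the chromosome shift in its rise was not tested. The call against CPN-/- was lost without CPN-/- CRY1 replicate 1 (log2 fold change 0.59; edgeR, adjusted p = 0.13) and without CPN-/- CRY1 replicate 2 (0.73; edgeR, adjusted p = 0.085). In CPN-/- CRY2, the log2 fold change of Hif1an was 0.31 without CPN-/- replicate 1 and -0.011 without replicate 2, and the CPN-/- libraries differed by -0.33.

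Vhl, the adaptor that recognizes hydroxylated HIF alpha, lies at chr6:113623994-113631634 on the forward strand, with 3 exons and 2792 bases. It was at 50.5 and 58.4 CPM in CPN-/-, 40.3 and 41.8 CPM in CPN-/- CRY1, and 48.3 and 47.0 CPM in CPN-/- CRY2. The lines did not overlap, and both CRY lines were below CPN-/-. Vhl fell 1.33-fold in CPN-/- CRY1, a log2 fold change of -0.41 (SE 0.11, edgeR, adjusted p = 0.034), where the median of chromosome 6 was -0.13. The lower quartile of chromosome 6 was -0.44, and the part of the chromosome shift in the Vhl result was not tested. For CPN-/- CRY2 the difference of Vhl from CPN-/- was -0.19 on the log2 scale (95% confidence interval -0.44 to 0.061) and did not pass (edgeR, adjusted p = 0.30). The Vhl call was lost in the fit of the 4 libraries compared (edgeR, adjusted p = 0.10) and with any 1 of the CRY libraries left out (adjusted p = 0.10 to 0.22). In CPN-/- CRY2, the log2 fold change of Vhl was -0.29 without CPN-/- replicate 1 and -0.076 without replicate 2. Between the CRY lines the log2 difference of -0.21 did not pass (edgeR, adjusted p = 0.23), nor did it under 13 of the 16 alternatives. The 3 fits in which it passed leave out 1 or both CPN-/- libraries and take the spread from the CRY lines alone.

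The calls between the CRY lines rested on all 4 of their libraries. With any 1 of them left out, none of the 4 calls (Hif1a, Arnt, Egln3, Hif1an) passed by edgeR, with adjusted p of 0.15 to 0.30, while their directions held. In a fit of the 4 CRY libraries alone, 7 of the 8 tested genes passed, all but Arnt2. That fit called 6838 of all tested genes, in place of 2292 in the main fit.

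**Figure D4:**
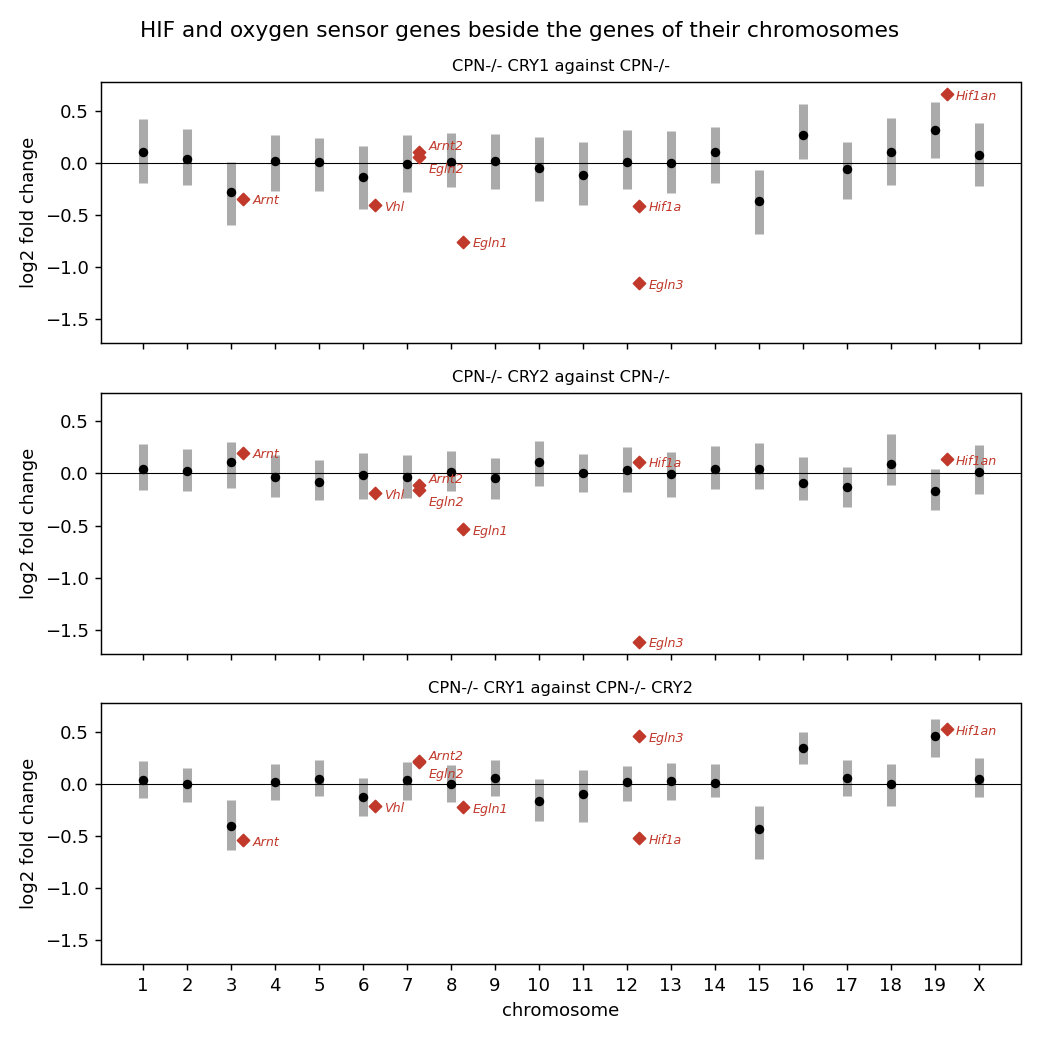
Median log2 fold change (black points) and middle range from the lower to the upper quartile (grey bars) of the tested genes of each chromosome, with the 8 tested genes as red diamonds, in the 3 comparisons. In CPN-/- CRY1 against CPN-/-, Arnt and Vhl lie within the bars of chromosomes 3 and 6, and Hif1an lies above that of chromosome 19. Each is on the side to which the median of its chromosome is shifted. Egln1, Egln3 and Hif1a lie below the bars of chromosomes whose medians are near 0.

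**Figure D5:**
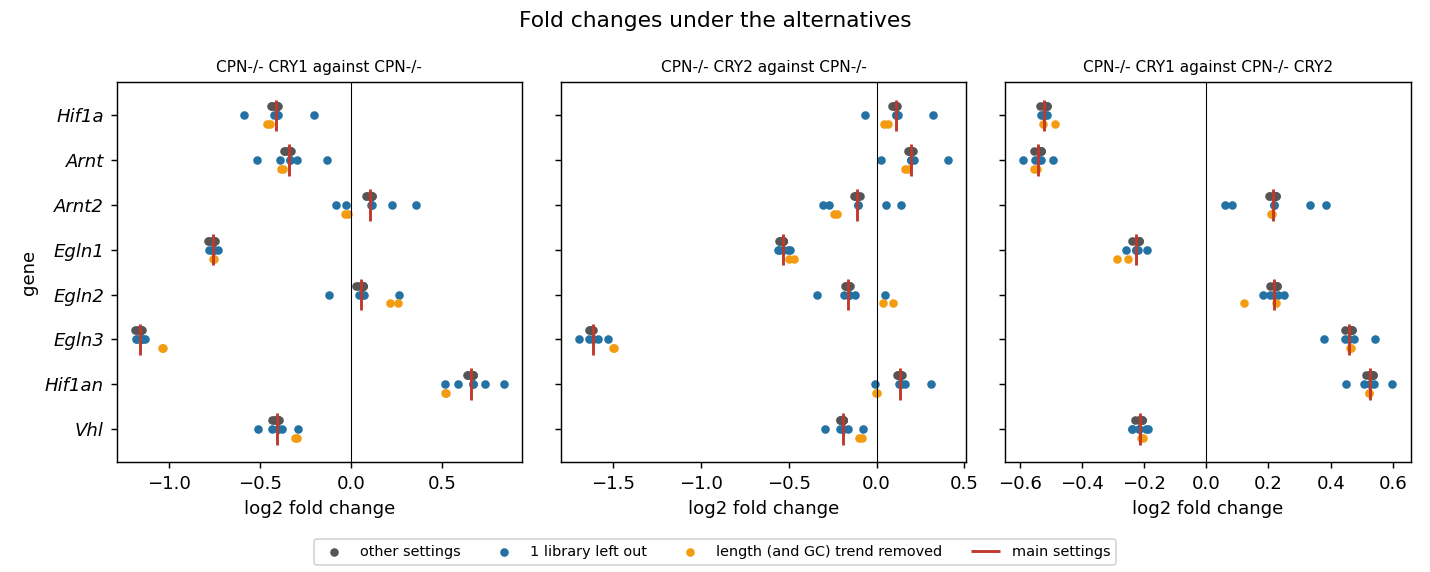
log2 fold change of each tested gene in the 3 comparisons under the main settings (red lines), with 1 library left out (blue), with length trends removed (orange) and under the other settings (grey). The values of Egln1 and Egln3 against CPN-/- stay below 0. Those of Arnt2 and Egln2 against CPN-/- lie on both sides of 0, as do those of Hif1a and Hif1an in CPN-/- CRY2 against CPN-/-.

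Genes that work with these subunits and sensors were counted from lists of known roles. The lists were chosen with earlier results of these data known, so the counts describe them and are not a test. Each count is given beside the share of all tested genes that passed, 24.3%, 6.66% and 16.3% in the 3 comparisons, and their medians of -0.0073, -0.0076 and -0.0046. Of the 4 partners of VHL in its ubiquitin ligase, Rbx1, the RING subunit, fell in CPN-/- CRY1 (log2 fold change -0.43, SE 0.13; edgeR, adjusted p = 0.049), from 114 and 139 CPM in CPN-/- to 95.8 and 91.9 CPM. Rbx1 lies on chromosome 15, whose median was -0.36, and it is near identical to a pseudogene, Rbx1-ps, over 152 bases. Elob, Eloc and Cul2 did not pass in CPN-/- CRY1, and none of the 4 passed in CPN-/- CRY2 or directly between the CRY lines.

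Among 10 tested HIF coactivators and stability factors of 11 listed, 1 rose and 1 fell in CPN-/- CRY1 and none passed in CPN-/- CRY2, a share in CPN-/- CRY1 no higher than the 24.3% of all tested genes. Cited2, an inhibitor that competes with HIF1 alpha for its coactivators, was at 110 and 120 CPM in CPN-/-, 168 and 199 CPM in CPN-/- CRY1, and 86.0 and 94.98 CPM in CPN-/- CRY2. It rose 1.59-fold in CPN-/- CRY1 (log2 fold change 0.67, SE 0.12; edgeR, adjusted p = 0.010) and was 2.02-fold higher there than in CPN-/- CRY2 (log2 difference 1.02; edgeR, adjusted p = 0.0028). Siah2, a ubiquitin ligase that targets prolyl hydroxylases, fell 1.47-fold in CPN-/- CRY1 (log2 fold change -0.56, SE 0.10; edgeR, adjusted p = 0.011) and was lower there than in CPN-/- CRY2 (log2 difference -0.45; edgeR, adjusted p = 0.028), on chromosome 3, whose medians in these comparisons were -0.28 and -0.40.

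Of 4 other oxygen-dependent dioxygenases (P4htm, Ado, Kdm5c and Kdm6a), none passed in CPN-/- CRY1. P4htm, a membrane-bound prolyl hydroxylase, had 21 and 27 counts in CPN-/-, 40 and 23 in CPN-/- CRY1, and 3 in each CPN-/- CRY2 library. It was lower in CPN-/- CRY2 than in CPN-/- (edgeR, adjusted p = 0.023) and than in CPN-/- CRY1 (adjusted p = 0.0093). Its summed level in CPN-/- CRY2 was 0.133 times that in CPN-/-, with an exact 95% interval of 0.0467 to 0.312 that covers counting error only.

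Among the other bHLH-PAS factors, 9 of 11 were tested, and 3 rose and 1 fell in CPN-/- CRY1, while 2 rose in CPN-/- CRY2, beside 24.3% and 6.66% of all tested genes called. Ahr, the aryl hydrocarbon receptor and another partner of Arnt, was at 19.96 and 17.3 CPM in CPN-/-, 10.8 and 10.7 CPM in CPN-/- CRY1, and 22.4 and 25.4 CPM in CPN-/- CRY2. It fell 1.73-fold in CPN-/- CRY1 (log2 fold change -0.79, SE 0.13, edgeR, adjusted p = 0.0067) and was 2.22-fold lower there than in CPN-/- CRY2 (log2 difference -1.15, edgeR, adjusted p = 0.0019). Like Hif1a and Arnt, Ahr was lowest in CPN-/- CRY1. Bmal1, the partner of CLOCK, rose 1.29-fold in CPN-/- CRY1 (log2 fold change 0.37, SE 0.10; edgeR, adjusted p = 0.039). In CPN-/- CRY2 the log2 difference of Bmal1 was 0.33 and did not pass (edgeR, adjusted p = 0.11), and the CRY lines differed by 0.035 (adjusted p = 0.87).

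The neuronal PAS factors were rare in these cells. Npas4, on chromosome 19, rose from 0.723 and 0.691 CPM in CPN-/- to 4.12 and 4.15 CPM in CPN-/- CRY1 (log2 fold change 2.54; edgeR, adjusted p = 5.6e-04) and 1.58 and 1.96 CPM in CPN-/- CRY2 (1.32; edgeR, adjusted p = 0.019). Npas2, a paralog of Clock, rose in CPN-/- CRY1 (log2 fold change 1.10, edgeR, adjusted p = 0.026) from 0.880 and 0.806 CPM to 1.58 and 2.08 CPM. In CPN-/- CRY2 Npas2 was at 0.367 and 0.222 CPM, a log2 fold change of -1.51 that did not pass (edgeR, adjusted p = 0.066). Npas3 rose in CPN-/- CRY2 (0.83; edgeR, adjusted p = 0.041), and its log2 fold change in CPN-/- CRY1 was 0.57. In the direct comparison, 2 of these factors were higher in CPN-/- CRY1 (Npas2 and Npas4) and Ahr was lower.

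Of 15 HIF target genes other than glycolytic enzymes, among them the glucose transporter gene Slc2a1, 12 fell and 1 rose in CPN-/- CRY1. In CPN-/- CRY2, 9 of them fell. Their median log2 fold changes were -1.02 and -0.64, beside 13.1% and 4.08% of all tested genes called lower and medians of -0.0073 and -0.0076. In the direct comparison, 6 were lower and 1 was higher in CPN-/- CRY1, with a median of -0.26, beside 8.57% and 7.72% of all tested genes. Bnip3, a mitophagy receptor, was at 163 and 179 CPM in CPN-/-, 35.3 and 35.9 CPM in CPN-/- CRY1, and 50.2 and 49.8 CPM in CPN-/- CRY2, and it fell by log2 values of 2.26 and 1.77 (edgeR, adjusted p = 8.8e-05 and 3.1e-04), although it is near identical to several pseudogenes. Ndrg1 fell in CPN-/- CRY1 (log2 fold change -1.93; edgeR, adjusted p = 1.7e-04), on chromosome 15, and in CPN-/- CRY2 (-0.64; edgeR, adjusted p = 0.012). The collagen prolyl hydroxylase subunits P4ha1 and P4ha2 fell in CPN-/- CRY1 (-1.27 and -0.97; edgeR, adjusted p = 5.9e-04 and 8.8e-04) and in CPN-/- CRY2 (-0.80 and -1.07; edgeR, adjusted p = 0.0063 and 0.0012).

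The stress gene Ddit4 fell in CPN-/- CRY1 (log2 fold change -1.65; edgeR, adjusted p = 3.8e-04) while its log2 fold change in CPN-/- CRY2 was -0.23. The exception in direction was Adm, which encodes the vasodilator adrenomedullin. Adm was at 31.4 and 37.0 CPM in CPN-/-, 94.0 and 94.8 CPM in CPN-/- CRY1, and 29.1 and 29.8 CPM in CPN-/- CRY2, and it rose in CPN-/- CRY1 by a log2 fold change of 1.47 (SE 0.11; edgeR, adjusted p = 4.8e-04). Car12 had 13 and 9 counts in CPN-/- and 0 in both CPN-/- CRY2 libraries, at least 3.41-fold lower against a floor of 3 counts per library, and the median of the list in CPN-/- CRY2 was -0.64 with Car12 at that bound too.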

How the data were processed

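Polyadenylated RNA of 6 libraries (2 independent RNA preparations for each of 3 cell lines) was sequenced as stranded paired-end reads. Per the labels and the methods, the authors aligned reads to mm10 with STAR, featureCounts gave whole counts per gene, and the tables of 27179 NCBI Gene identifiers were used as deposited, unnormalized. The gene annotation, the strand setting and the handling of reads with several matches are not given in the sources used here. Samples were grouped by the labels. All 6 libraries, of 25957409 to 36106949 counts, entered a single fit with the cell line as its only term, in R 4.3.3 with edgeR 4.0.16 (TMM, filterByExpr with minimums of 10 and 15 counts, robust two-sided quasi-likelihood test, Benjamini-Hochberg over 14069 genes, adjusted p under 0.05). Standard errors were derived from the fold change and the F statistic.

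Symbols, gene positions and promoters came from RefSeq (GRCm38.p6, 25275 identifiers matched). Strands, exons, transcript lengths, GC content and overlaps came from GENCODE vM21. Near-identical genes were searched with BLAST+ at 95% identity over at least 150 bases. The genes and lists were chosen with earlier results of these data known. Named were all 10 genes, at most 6 genes per list with a call against CPN-/- by smallest p, the 3 genes most correlated with each of the 2 most variable genes, Cry1 and Cry2; Car12 and genes given with values that did not pass were added after their values were seen. Alternatives were DESeq2 1.42.0 (size factors, Wald test), library-size and upper-quartile scaling, a filter at 1 count or at 10 counts in every library, a replicate block, the 4 libraries of a comparison, each library left out, and loess trends (span 0.5) with length, or length and GC content, removed. The main fit did not use replicate numbers as pairs. The steps were tested on simulated data.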

Additional observations from a re-analysis of the deposited data

How the results depend on the processing

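The 8 tested genes gave 384 log2 fold changes over 3 comparisons and 16 alternatives, of which 315 kept their direction and their side of the threshold, 30 lost a call, 25 gained one and 14 changed sign. Gains against CPN-/- with 1 CPN-/- library left out rest on the spread of the CRY lines alone. Each result that changed sign had missed the threshold in the main analysis. With 1 library left out, log2 fold changes against CPN-/- ran from -0.085 to 0.36 for Arnt2 and from -0.12 to 0.27 for Egln2 in CPN-/- CRY1, and in CPN-/- CRY2 from -0.065 to 0.32 for Hif1a, from -0.30 to 0.14 for Arnt2, from -0.34 to 0.049 for Egln2 and from -0.011 to 0.31 for Hif1an. The library at the turned end was CPN-/- replicate 1 or 2 in each case, and Arnt2 also turned without CPN-/- CRY1 replicate 1 (-0.025) and without CPN-/- CRY2 replicate 1 (0.053). With the length trend removed, Arnt2 turned to -0.031 in CPN-/- CRY1, and Egln2 to 0.036 and Hif1an to -0.0054 in CPN-/- CRY2. With the length and GC trends removed, these became -0.015, 0.094 and -0.00050.

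Among the 8 genes, the count of calls ran with 1 library left out from 2 to 7 in CPN-/- CRY1 against CPN-/-, from 1 to 7 in CPN-/- CRY2 against CPN-/- and from 0 to 7 between the CRY lines, and with only the 4 libraries of a comparison it was 1 in CPN-/- CRY2 and 7 between the CRY lines. In CPN-/- CRY1 against CPN-/-, the 8 genes gave 3 calls in the fit of 4 libraries and 6 with the length trend, or both trends, removed. Over all tested genes, the 3423, 937 and 2292 calls became 1798, 473 and 6838 in fits of 4 libraries, 5422, 2281 and 4259 with the length trend removed, and 5489, 2291 and 4429 with both trends removed. The filter of 10 counts in every library gave 583 in CPN-/- CRY2, with 12955 genes tested. With 1 library left out, they ran from 663 to 8980, from 199 to 8046 and from 475 to 6897, the highest without CPN-/- replicate 1 and the lowest with 1 library left in a CRY line. A line left with 1 library, CPN-/- included, is assumed to vary like the others. Hif1a lost its direct call with that filter (edgeR, adjusted p = 0.053). The cause was not tested.

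Replicate numbers are shared between lines, and the labels do not say whether they pair the samples. The correlation of replicate differences was -0.08 for CPN-/- and CPN-/- CRY1, 0.14 for CPN-/- and CPN-/- CRY2 and -0.03 for the CRY lines. These values cannot decide the pairing, because the CPN-/- difference follows the length trend. With a replicate block, 4, 2 and 3 of the 8 genes and 3458, 977 and 2188 of all genes were called, and Egln3 lost its direct call (adjusted p = 0.054). Epas1 and Hif3a were too rare to test. Arnt2, with 164 to 315 counts per library, had the largest standard errors of the 8 tested genes. The effect of depth was not tested.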

Other observations

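The genes whose levels most resembled the 2 most variable genes were ranked by Pearson correlation of log2 CPM over the 6 libraries, as a description with no test. The 6 points share libraries and fall into 3 lines, so high values are common, and 164 genes (1.17% of those tested) reached 0.95 or more with Egln3 and 264 (1.88%) with Egln1. Egln3, whose line means spanned 1.61 on the log2 scale, was nearest to Pdpn (r = 0.995), Prl2c2 (0.995) and Zc3h12a (0.994). Pdpn encodes podoplanin, a membrane glycoprotein, and Zc3h12a an RNase that degrades inflammatory mRNAs. Prl2c2 belongs to a family of similar prolactin-like genes, so its counts are uncertain. Egln1, whose line means spanned 0.76, was nearest to Entpd6 (0.999), Ak4 (0.998) and Slc2a1 (0.998). Slc2a1, the glucose transporter GLUT1, fell in CPN-/- CRY1 by 0.62 and in CPN-/- CRY2 by 0.43 on the log2 scale (edgeR, adjusted p = 0.0045 and 0.034). Ak4 encodes a mitochondrial adenylate kinase and Entpd6 a nucleotide-hydrolysing enzyme.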
